A study of Mus musculus with 6 samples.

Results

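The genes of the mitochondrial respiratory chain and ATP synthase were described across all 6 libraries. They were chosen by chromosome and by name: every row on the mitochondrial chromosome, and every protein-coding row whose GENCODE M21 symbol starts with Nduf, Uqcr, Cox4, Cox5, Cox6, Cox7, Cox8 or Atp5, or is Sdha, Sdhb, Sdhc, Sdhd or Cyc1. The rule found 131 of 49671 listed genes. The mitochondrial rows numbered 37, of which 13 are mRNAs, 2 are rRNAs and 22 are tRNAs. The nuclear rows numbered 94, of which 85 encode subunits and 9 encode assembly or accessory factors. The subunits numbered 36 for complex I, 4 for complex II, 9 for complex III, 20 for complex IV and 16 for complex V.

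RNA was sequenced from naive primary CD8 T cells of OT-I mice, labelled as splenocytes and stimulated with SIINFEKL peptide for 48 h. OT-I cells carry a transgenic T cell receptor for this ovalbumin peptide, and the series asks how the treatments change the transcriptome of these cells when the peptide is presented on antigen-presenting cells. The groups were BiTS (a bispecific molecule that brings LAG-3 to the T cell receptor), BiTS(mut), which the labels do not explain further, and isotype. All groups shared the genotype and the peptide, and animal age is not given in the sources used here. Each group had 2 libraries. The labels do not say that these came from separate mice or cultures, so p-values measure the spread between libraries, which may be technical.

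The respiratory chain is built from 2 genomes. The mitochondrial genome is transcribed from both strands as long precursors, in which tRNAs punctuate most of the mRNAs and both rRNAs, and its mRNAs encode core subunits of complexes I, III, IV and V. All of complex II and the remaining subunits are encoded in the nucleus, where factors such as NRF1, the ETS factor GABPA and YY1 are known to bind many of their promoters. T cells build up mitochondrial mass and respiration after activation, and both sets of transcripts are needed for that.

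The title numbers split the libraries into a first set (numbers 1 to 3) and a second set (numbers 4 to 6), each with 1 library of every group. The labels do not say that the numbers mark a batch. Over 13996 tested genes, same-set libraries deviated together from their group means, with a Pearson r of 0.74 for BiTS with BiTS(mut), 0.66 for BiTS with isotype and 0.73 for BiTS(mut) with isotype, so each treatment comparison is given without and with the set as a block. Gene totals ran from 10813123 to 15239077 counts, and the spike-in share ran from 3.36% to 7.54%. T cell markers summed to 1966 to 2763 CPM (counts scaled to library size by TMM, a scaling that sets most genes level between libraries) over the 6 libraries, with Cd3e at 114 to 145 CPM. Dendritic cell markers summed to 605 to 1193 CPM. Erythroid and neutrophil markers each summed to at most 0.83 CPM, with Hbb-bs and S100a8 at 0 counts in all 6 libraries. In bulk RNA, fewer cells of a type and less RNA per cell cannot be told apart.

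The 13 mitochondrial mRNAs did not have comparable levels in these tables, and the low ones lay together in the genome. mt-Co1, the catalytic subunit of cytochrome c oxidase, had 59645 and 72435 CPM in BiTS, 57750 and 66755 CPM in BiTS(mut), and 48557 and 66119 CPM in isotype. It alone made up 69.2% to 75.1% of all mitochondrial mRNA counts. mt-Co2, which carries the copper centre that accepts electrons from cytochrome c in the same enzyme, had 18.5 and 25.3 CPM in BiTS, 17.6 and 25.0 CPM in BiTS(mut), and 17.7 and 21.3 CPM in isotype. Per kilobase of exon the means over the 6 libraries were 40050 CPM for mt-Co1 and 30.6 CPM for mt-Co2. The rows from mt-Co2 to mt-Nd4l (mt-Co2, mt-Atp8, mt-Atp6, mt-Co3, mt-Nd3 and mt-Nd4l) had means of 16.1 to 204 CPM per kilobase, against 1661 to 40050 CPM per kilobase for the other 7 mRNAs.

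Most of the low rows have near-identical copies in the nuclear genome. On chromosome 1, between 24611535 and 24616197 on the minus strand (GRCm38), lie pseudogene rows that match a run of mitochondrial genes in order. Gm28661 matched mt-Co2 at 681 of 681 aligned bases, Gm10925 matched mt-Atp6 at 678 of 678, and Gm28437 matched mt-Co3 at 783 of 783. Gm28438 matched mt-Nd3 at 344 of 345, Gm10222 matched mt-Nd4l at 294 of 294, and Gm28439 matched part of mt-Nd4 at 876 of 876. Gm29216 matched part of mt-Co1 at 486 of 492. These sequences are shown because they bear on what the counts of the low rows can mean. The stretches below are read 5′ to 3′ from GENCODE M21 transcripts, and capitals mark bases that differ within a pair: mt-Co1 (chrMT:6381-6580, plus strand) with Gm29216 (chr1:24615998-24616197, minus strand), mt-Nd3 (chrMT:9459-9578, plus strand) with Gm28438 (chr1:24613000-24613119, minus strand), and mt-Nd4l (chrMT:9877-9996, plus strand) with Gm10222 (chr1:24612581-24612700, minus strand).
mt-Co1: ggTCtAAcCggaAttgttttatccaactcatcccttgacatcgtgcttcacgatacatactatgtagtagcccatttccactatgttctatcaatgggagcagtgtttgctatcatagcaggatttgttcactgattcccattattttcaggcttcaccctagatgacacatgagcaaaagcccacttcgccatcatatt
Gm29216: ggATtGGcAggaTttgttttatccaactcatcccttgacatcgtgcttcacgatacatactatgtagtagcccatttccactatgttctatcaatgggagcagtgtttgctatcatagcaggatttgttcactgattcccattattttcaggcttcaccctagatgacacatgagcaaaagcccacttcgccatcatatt
mt-Nd3: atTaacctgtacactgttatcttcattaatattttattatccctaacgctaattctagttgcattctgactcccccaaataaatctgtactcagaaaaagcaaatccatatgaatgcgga
Gm28438: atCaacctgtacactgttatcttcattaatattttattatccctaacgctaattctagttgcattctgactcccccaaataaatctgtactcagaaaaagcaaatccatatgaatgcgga
mt-Nd4l: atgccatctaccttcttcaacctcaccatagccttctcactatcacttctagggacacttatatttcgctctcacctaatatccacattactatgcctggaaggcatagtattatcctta
Gm10222: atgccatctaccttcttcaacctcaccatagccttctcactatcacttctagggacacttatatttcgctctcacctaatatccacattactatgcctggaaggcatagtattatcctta

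The mt-Co1 pair differs at 6 of 200 bases, all near the start of the pseudogene row, the mt-Nd3 pair at 1 of 120, and the mt-Nd4l pair at 0 of 120. Of all 50-base words of each mitochondrial gene, 100% in mt-Co2, 99.9% in mt-Co3, 99.5% in mt-Atp6, 98.8% in mt-Nd4l and 98.0% in mt-Nd3 also occur in a nuclear transcript. The shares were 62.2% for mt-Nd4 and 51.1% for mt-Co1. They were 8.19% for mt-Nd2 and 7.61% for mt-Nd5, and 0% for mt-Nd1, mt-Nd6, mt-Cytb and mt-Atp8. The mt-Atp8 row is an exception to the pattern, since it had 4.47 to 6.28 CPM with no shared word in an annotated nuclear transcript. Words were searched in annotated transcripts only. Between Gm10925 and Gm28661 on chromosome 1 lie 233 bases without such a row, and the matching mitochondrial interval between mt-Co2 and mt-Atp6, of 230 bases, holds most of mt-Atp8. The sequence of that gap was not read. These 7 rows and Gm10221, a row on chromosome 5 with 21 of 33 aligned bases identical to mt-Rnr2, together had 94.1 and 114 CPM in BiTS, 91.2 and 118 CPM in BiTS(mut), and 80.1 and 121 CPM in isotype. Single pseudogene rows reached levels like those of their partners, such as Gm28661 with 19.2 and 22.9 CPM in BiTS, 18.5 and 23.8 CPM in BiTS(mut), and 13.2 and 25.8 CPM in isotype. How the authors treated reads with several matching places is not given in the sources used here, and its part in these levels was not tested. Differences between mt-Co1 and the low rows are therefore not read as differences in transcript abundance.

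**Figure D1:**
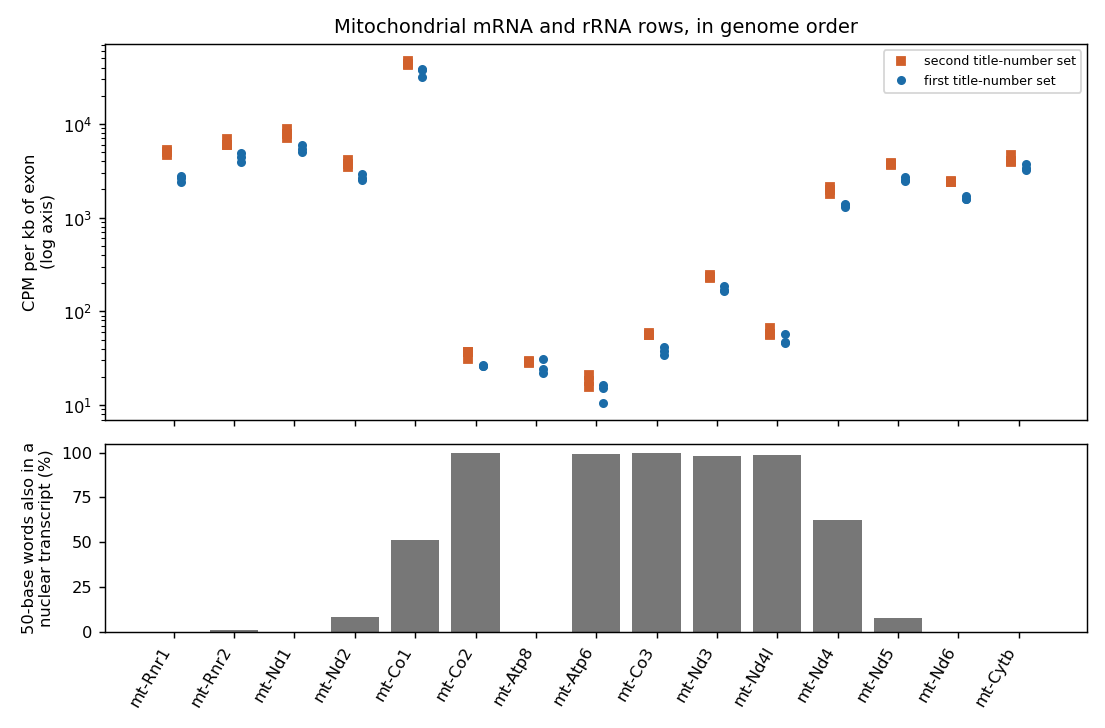
Level of each mitochondrial mRNA and rRNA row in CPM per kilobase of exon (log axis, 1 point per library, squares for the second and circles for the first title-number set) above the share of its 50-base words that also occur in a nuclear transcript. The rows from mt-Co2 to mt-Nd4l lie between 16.1 and 204 CPM per kilobase on average and, apart from mt-Atp8, share at least 98.0% of their words.

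Of the other mitochondrial mRNAs, those for complex I subunits led. mt-Nd1, which lines the ubiquinone channel of complex I, had 5635 and 6725 CPM in BiTS, 5139 and 7477 CPM in BiTS(mut), and 4843 and 8374 CPM in isotype. mt-Nd5, a proton-pumping subunit, had 4900 and 6693 CPM in BiTS, 4656 and 6735 CPM in BiTS(mut), and 4537 and 7064 CPM in isotype. mt-Cytb, the cytochrome b of complex III, had 4303 and 4524 CPM in BiTS, 3869 and 4638 CPM in BiTS(mut), and 3644 and 5373 CPM in isotype. In each of these genes the second library of every group was above its first, and the groups overlapped. mt-Nd6, the only protein gene read from the other strand, had 821 to 1291 CPM. mt-Nd2 and mt-Nd4, both proton-pumping subunits, had 2640 to 4281 CPM and 1795 to 2934 CPM. The 12S rRNA gene mt-Rnr1 had 2643 and 5087 CPM in BiTS, 2556 and 4443 CPM in BiTS(mut), and 2281 and 4790 CPM in isotype. The 16S rRNA gene mt-Rnr2 had 7807 and 9460 CPM in BiTS, 7021 and 9344 CPM in BiTS(mut), and 6171 and 10854 CPM in isotype. Among the tRNA rows, mt-Td and mt-Tk had 0 counts in every library, while mt-Tp had 1641 to 2438 counts. mt-Td and mt-Tk lie on either side of the low row mt-Co2, and mt-Tp lies outside the low run. Also outside it, mt-Tf and mt-Tv had at most 1 and 2 counts in a library. The part of position in these counts was not tested. Fragments the length of a tRNA are poorly captured by standard RNA-seq libraries.

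The nuclear members held a small part of the counts and a wide range of levels. Per kilobase of exon, the highest member of each complex was Ndufa13 in complex I (151 CPM per kilobase), Sdha, the flavoprotein of complex II (49.6), Uqcr10 in complex III (104), Cox6a1 in complex IV (269) and Atp5b, the catalytic beta subunit of ATP synthase (243). Atp5b had 1052 and 1029 CPM in BiTS, 964 and 1067 CPM in BiTS(mut), and 931 and 1123 CPM in isotype. Complex IV subunits come in broadly expressed and tissue-restricted forms, and the broad forms were the higher of each pair. Cox4i1 had 291 to 367 CPM and Cox4i2 had 8 to 13 counts per library. Cox6a1 had 173 to 207 CPM and Cox6a2, the heart and muscle form, had 9 to 34 counts. Its row overlaps Itgad, and the strand setting is not given, so its reads cannot be assigned to 1 of the genes. Cox6b1 had 62.4 to 96.5 CPM and Cox6b2, known from testis, had 14.9 to 27.5 CPM. Cox7a2 had 42.0 to 57.2 CPM and the muscle form Cox7a1 had 25 to 41 counts. Cox8a had 91.9 to 114 CPM, while Cox8b had 1 count and Cox8c 0 counts over all 6 libraries, against an upper limit of 0.197 to 0.277 CPM per library that a count of 0 allows. Ndufa4 had 22.3 to 45.1 CPM and Ndufa4l2, known as a hypoxia-induced relative, had 0 to 5 counts in a row that overlaps Shmt2.

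Summed over genes, the 13 mitochondrial mRNAs took 9.27 to 11.2 times the counts of the 94 nuclear members. These sums take the low rows from mt-Co2 to mt-Nd4l as counted, and mt-Co1 alone made up 69.2% to 75.1% of them. Their share of gene counts was 8.07% and 9.57% in BiTS, 7.78% and 9.27% in BiTS(mut), and 6.97% and 9.39% in isotype, with 95% Wilson intervals no wider than 0.02 percentage points on either side for counting error alone. The nuclear members took 0.751% and 0.853% in BiTS, 0.743% and 0.892% in BiTS(mut), and 0.752% and 0.892% in isotype. The ratio of summed mitochondrial mRNA to summed nuclear counts was 10.7 and 11.2 in BiTS, 10.5 and 10.4 in BiTS(mut), and 9.27 and 10.5 in isotype. The isotype library of the first set was the lowest in mitochondrial share and in ratio, and the BiTS library of the second set was the highest in both.

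**Figure D2:**
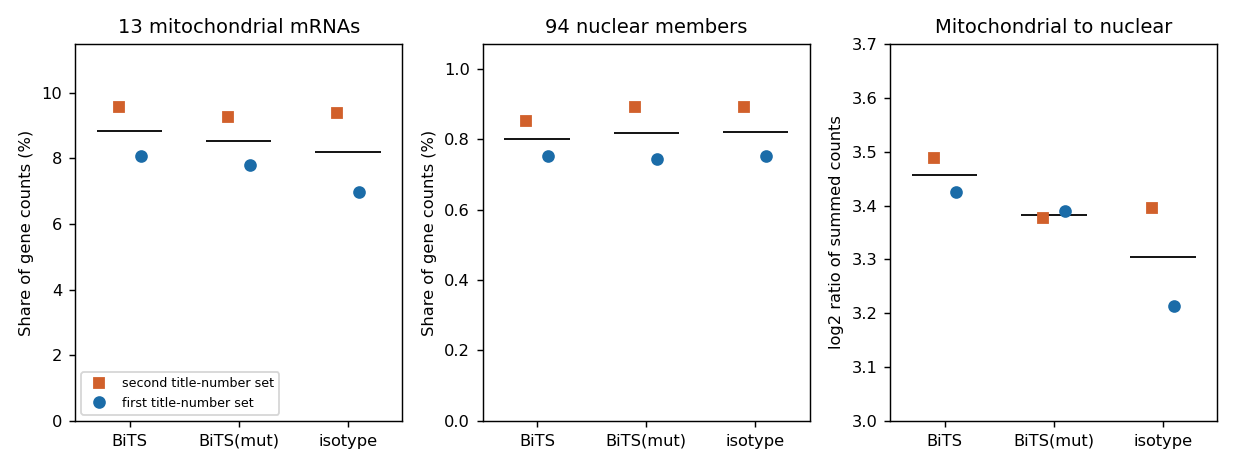
Share of gene counts (%) in the 13 mitochondrial mRNAs and in the 94 nuclear members, and the log2 ratio of their summed counts, for BiTS, BiTS(mut) and isotype (1 point per library, black line for the group mean, squares for the second and circles for the first title-number set). The second-set libraries lie above the first-set libraries in both shares, while the log2 ratios run from 3.21 to 3.49.

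In BiTS against isotype, no respiratory chain member passed the test. The mitochondrial mRNA share averaged 8.82% ± 1.06 in BiTS and 8.18% ± 1.71 in isotype (SD, n = 2 each), a difference of 0.637 percentage points (two-sided exact permutation p = 0.667). Within sets BiTS was higher by 1.10 points in the first and by 0.178 points in the second. The log2 ratio of mitochondrial mRNA to nuclear counts averaged 3.46 ± 0.04 in BiTS and 3.30 ± 0.13 in isotype, a difference of 0.15 (exact permutation p = 0.333, the smallest that 2 against 2 libraries allow). Without mt-Co1 in the sum the difference was -0.02. All p-values of this kind belong to a family of 32 tests, over which the lowest Benjamini-Hochberg adjusted p was 0.533.

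Gene by gene, edgeR's quasi-likelihood test called 0 of the 120 tested members without the set block, where it called 0% of all tested genes, with 0 members at an unadjusted p under 0.05 against 1.26% of all tested genes. With the block it called 0 members against 3.4% of all tested genes (1.81% higher and 1.59% lower), with 6 members at an unadjusted p under 0.05 against 14.8% of all tested genes. DESeq2 called 0 members without the block, and 0 with it against 1.14% of all tested genes. The blocked medians were 0.07 for the 30 tested mitochondrial members, -0.02 for the 90 tested nuclear members and -0.0047 for all tested genes on the log2 scale. mt-Co1 was at 0.21 ± 0.08 (log2 fold change ± SE, edgeR with the block, adjusted p = 0.126), with a 95% interval of 0.06 to 0.37, and at 0.30 in the first and 0.13 in the second set. limma-voom with the block called mt-Co1 (adjusted p = 0.0296), and 3.84% of all tested genes. The mitochondrial tRNA row mt-Ta had 11.1 and 15.9 CPM in BiTS, 9.08 and 12.5 CPM in BiTS(mut), and 7.78 and 10.4 CPM in isotype, a log2 fold change of 0.57 ± 0.17 in BiTS against isotype with an adjusted p of 0.0527 (edgeR with the block).

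Other mitochondrial rows went opposite ways in the sets. mt-Nd1 was higher in BiTS than isotype by 0.22 on the log2 scale in the first set and at -0.32 in the second, mt-Cytb was at 0.24 and -0.25, and mt-Rnr2 was at 0.34 and -0.20. mt-Rnr1 was at 0.21 and 0.09. Of the 13 mRNAs, 12 were higher in BiTS in the first set and 6 in the second. With the block, leaving out isotype replicate 1 gave 6 called members of 120, against 6.38% of all tested genes, with mt-Rnr2 (-0.17), mt-Nd1 (-0.25), mt-Nd4 (-0.20), mt-Cytb (-0.21) and Atp5g3 (-0.37) lower and Ndufv3 (0.33) higher in BiTS. Leaving out isotype replicate 4 gave 5 of 120, against 3.95% of all tested genes, all higher in BiTS: mt-Rnr1 (0.25), mt-Rnr2 (0.31), mt-Co1 (0.32), mt-Cytb (0.20) and Ndufa9 (0.36). These opposite signs sit beside the spread of the isotype libraries, whose mt-Nd1 levels of 4843 and 8374 CPM were the lowest and the highest of the 6.

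Among nuclear members with a mean CPM of at least 5, the largest difference in each direction was in a complex I subunit. Ndufv3, an accessory subunit of the NADH-binding module, had 131 and 178 CPM in BiTS, 122 and 165 CPM in BiTS(mut), and 116 and 141 CPM in isotype. Its log2 fold change in BiTS against isotype was 0.25 ± 0.09 (edgeR with the block, adjusted p = 0.0967), and BiTS was the highest of the 3 groups in both sets. Ndufc1, an accessory membrane subunit, had 15.6 and 26.7 CPM in BiTS, 17.5 and 28.0 CPM in BiTS(mut), and 20.9 and 29.7 CPM in isotype, with a log2 fold change of -0.28 ± 0.13. BiTS was the lowest of the groups in both sets, and the adjusted p was 0.297 (edgeR with the block). Ndufa9 was at 0.19, Atp5s, an accessory factor of ATP synthase, at 0.23, Ndufs5 at -0.21 and Ndufa12 at -0.17, none of them called. By complex, nuclear subunits had blocked medians of 0.02 in complex I, 0.00 in complex II, -0.09 in complex III, -0.05 in complex IV and -0.02 in complex V. All 9 nuclear complex III subunits had a negative log2 fold change, as did 12 of 16 in complex IV, with 0 called in either. So did 7126 of all 13996 tested genes. These signs are those of TMM scaling. With spike-in scaling and the block, the median was 0.03 over nuclear members and 0.05 over all tested genes. Genes read in the same libraries are not independent replicates.

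**Figure D3:**
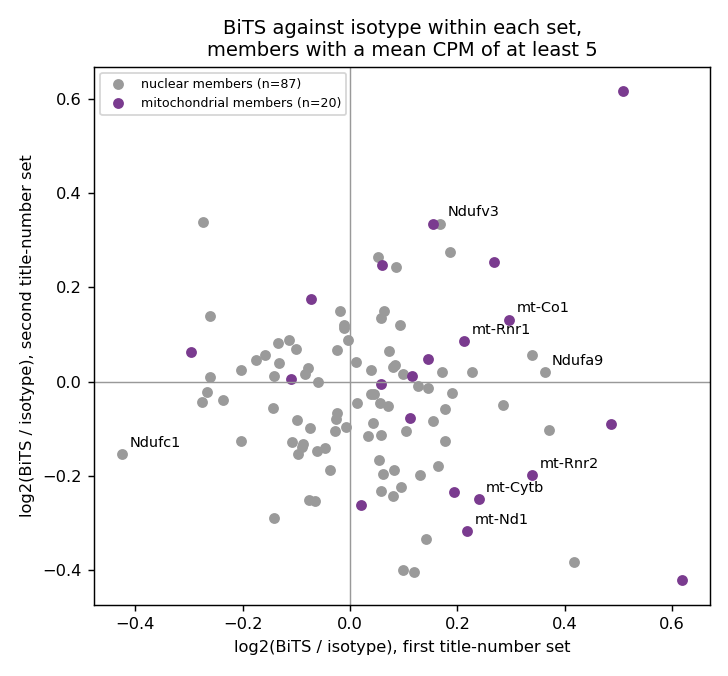
Log2 ratio of BiTS to isotype in the first (x axis) and the second (y axis) title-number set for the 20 mitochondrial and 87 nuclear members with a mean CPM of at least 5 (1 point per gene). mt-Co1 and Ndufv3 are positive in both sets, Ndufc1 is negative in both, and mt-Nd1, mt-Cytb and mt-Rnr2 are positive in the first and negative in the second.

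The precision of this comparison depends on the block. With it, the 95% interval stayed within a log2 fold change of 0.5 in either direction for 83 of 87 nuclear and 17 of 20 mitochondrial members with a mean CPM of at least 5. Without it, 20 of 87 nuclear and 0 of 20 mitochondrial members did so. In the blocked fit 45.9 of the degrees of freedom came from the spread shared over all genes and 2 from the gene's own libraries, against 3.14 and 3 without the block. Markers of other cells moved in the same comparison. In BiTS against isotype with the block, 5 of 11 dendritic cell markers fell and 0 rose (median -0.36), and their summed level was 850 and 605 CPM in BiTS against 1193 and 732 CPM in isotype. Of 10 T cell markers 3 rose, of 5 rows that carry rRNA-like sequence 3 fell, and of 4 macrophage and monocyte markers 0 were called. The part of these in the member values was not tested.

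Genes that serve the mitochondrial genome and its translation were counted by list in BiTS against isotype (edgeR with the block), where 3.4% of all tested genes were called (1.81% higher and 1.59% lower). Of 21 genes of mitochondrial DNA transcription and replication, Primpol, a primase that restarts stalled replication, rose (0.42 ± 0.09, adjusted p = 0.00207) and 0 fell. Of 78 mitochondrial ribosomal proteins, Mrpl39 (-0.35 ± 0.10) and Mrpl41 (-0.49 ± 0.14) fell and 0 rose. The proteases Afg3l2 (0.39 ± 0.08) and Lonp1 (0.28 ± 0.08) rose among 14 chaperones and proteases. Tmem70, an assembly factor of ATP synthase, fell (-0.41 ± 0.12) among 38 tested assembly factors outside the naming rule. Lars2, the mitochondrial leucyl-tRNA synthetase, was the call among 28 translation genes (-1.22 ± 0.13), and its row also stands among those that carry rRNA-like sequence. The other lists, with 23 RNA processing genes, 11 regulators of nuclear respiratory genes, 14 genes of mobile carriers and ubiquinone synthesis and 16 tricarboxylic acid cycle genes, had 0 calls. Tfam, the packaging and transcription factor of mitochondrial DNA, was at -0.03 ± 0.11, and Polrmt, the mitochondrial RNA polymerase, at -0.04 ± 0.11. Without the block 0 genes of any list were called.

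In BiTS against BiTS(mut) no respiratory chain member was called. The mitochondrial mRNA share averaged 8.82% ± 1.06 in BiTS and 8.52% ± 1.05 in BiTS(mut) (SD, n = 2 each), a difference of 0.291 percentage points (exact permutation p = 0.667), with 0.285 in the first and 0.298 in the second set. The log2 ratio to nuclear counts was higher in BiTS by 0.07 (exact permutation p = 0.333, the smallest possible). edgeR called 0 members without the block, against 0% of all tested genes and with 0 at an unadjusted p under 0.05, against 0.543% of all tested genes. With the block it called 0, against 0.972% of all tested genes (0.272% higher and 0.7% lower) and with 2 at an unadjusted p under 0.05, against 8.45% of all tested genes. DESeq2 and limma-voom called 0 in both fits, where with the block they called 0.293% and 1.215% of all tested genes. mt-Co1 was at 0.08 ± 0.08, with 0.05 in the first and 0.12 in the second set. The largest blocked increases with a mean CPM of at least 5 were the assembly factor Ndufaf6 (0.17 ± 0.18), Ndufb4 (0.15 ± 0.18) and Ndufa8 (0.14 ± 0.11). The largest decreases were the assembly factors Ndufaf3 (-0.23 ± 0.19) and Ndufaf7 (-0.22 ± 0.15) and the complex IV subunit Cox7b (-0.16 ± 0.10). None of these differences exceeded 2 of its standard errors. The blocked median was 0.05 over mitochondrial and -0.03 over nuclear members, against 0.0005 over all tested genes. In the same comparison 4 of 11 dendritic cell markers fell and 0 rose, and their part in the member values was not tested.

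In BiTS(mut) against isotype the members again gave no call. The mitochondrial mRNA share averaged 8.52% ± 1.05 in BiTS(mut) and 8.18% ± 1.71 in isotype (SD, n = 2 each, exact permutation p = 1), and the difference was 0.811 points in the first set and -0.12 points in the second. edgeR called 0 members without the block, against 0% of all tested genes and with 0 at an unadjusted p under 0.05, against 0.293% of all tested genes. With the block it called 0, against 0.05% of all tested genes (0.00714% higher and 0.0429% lower). DESeq2 and limma-voom called 0 in both fits, where with the block they called 0.0143% and 0.0572% of all tested genes. At an unadjusted p under 0.05 the blocked edgeR fit had 1 member, against 4.43% of all tested genes. That member was Uqcrb, a ubiquinone-binding subunit of complex III, with 35.7 and 32.9 CPM in BiTS(mut) and 39.8 and 40.8 CPM in isotype. Its log2 fold change was -0.23 ± 0.11, with an adjusted p of 0.9997 (edgeR with the block). Atp5s was at 0.29 ± 0.17, Ndufaf7 at 0.26 ± 0.15, Ndufaf3 at 0.18 ± 0.19, Ndufc1 at -0.17 ± 0.13 and Ndufaf6 at -0.31 ± 0.18. Both BiTS and BiTS(mut) were compared with the same 2 isotype libraries, so the comparisons are not independent. mt-Co1 was at 0.13 ± 0.08 in BiTS(mut) against isotype. With the block, 4 of 120 members were called without isotype replicate 1 (Atp5a1, mt-Rnr2, mt-Nd1 and mt-Cytb, all lower in BiTS(mut)), against 0.899% of all tested genes. Without isotype replicate 4, 2 of 120 were called (mt-Rnr2 and mt-Co1, both higher), against 0.102% of all tested genes.

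Between the title-number sets most members were called. With TMM scaling, 89 of 120 tested members were higher and 1 was lower in the second set than in the first (edgeR with treatment as a term), against 25.9% higher and 26.9% lower (52.7% either way) of all tested genes. Scaling to the spike-in transcripts shifted the median of all genes by -0.76 on the log2 scale, to -0.74. Then 0 members were higher and 9 lower, against 43.7% of all tested genes called either way. BiTS(mut) replicate 2 had the highest spike-in share, 7.54%. Without both BiTS(mut) libraries, a choice made after seeing the data, 7 members were higher and 29 lower with spike-in scaling. Of all tested genes 60.7% were then called either way, and 58.9% were lower. The medians were -0.16 for nuclear members, -0.07 for mitochondrial mRNAs and -0.49 for all tested genes. Without both BiTS or both isotype libraries 0 members were called, against 8.86% and 3.39% of all tested genes. Relative to the median of all tested genes, the median of the nuclear members was 0.36 higher with TMM scaling of all 6 libraries. That of the 13 mitochondrial mRNAs was 0.42 higher. Spike-in scaling left both values nearly unchanged. It had to do so, because scaling shifts all genes of a library alike, and this is no separate support. The amount of spike-in added per cell or per RNA is not given in the sources used here. The directions below are those of TMM scaling, and they are differences relative to the other genes.

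Of 30 tested mitochondrial members, 23 were higher in the second set and 0 lower, with a median of 0.53. Of 90 tested nuclear members, 66 were higher and 1 lower, with a median of 0.38. The median over all tested genes was 0.02. CPM values of the 3 libraries of each set did not overlap for 21 of 30 mitochondrial members and 70 of 90 nuclear members, and in the second set 21 mitochondrial and 68 nuclear members were above and 2 nuclear members below the first. Over all tested genes 27.9% lay above and 27.8% below without overlap. The mitochondrial mRNA share averaged 9.41% ± 0.15 in the second set and 7.61% ± 0.57 in the first, and the nuclear share 0.879% ± 0.023 and 0.748% ± 0.005 (SD, n = 3 each). Both differences had an exact permutation p of 0.1, the smallest that 3 against 3 libraries allow. The log2 ratio of mitochondrial mRNA to nuclear counts was 3.42 ± 0.06 in the second set and 3.34 ± 0.11 in the first (exact permutation p = 0.5).

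**Figure D4:**
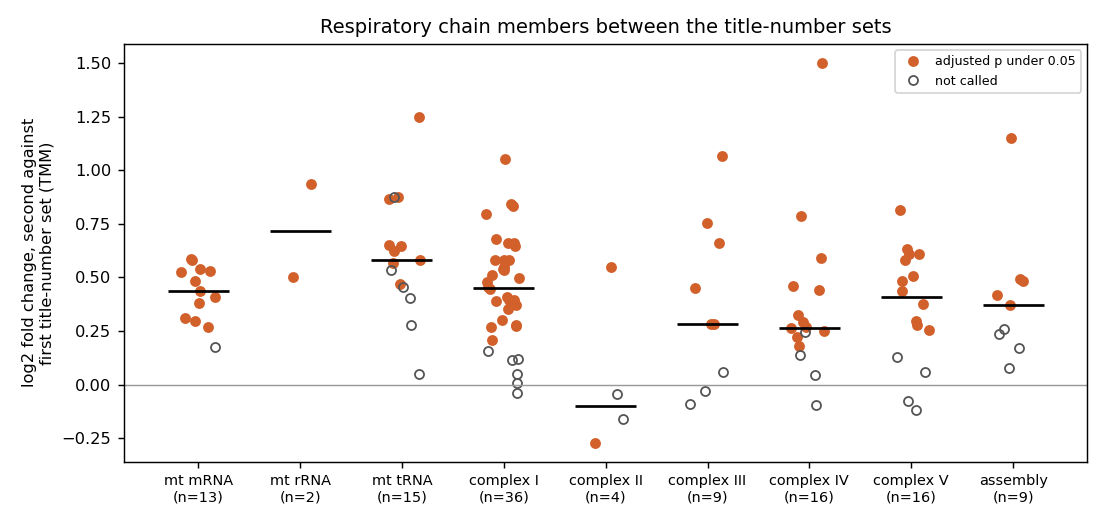
Log2 fold change of each tested member in the second against the first title-number set by class (1 point per gene, black line for the class median, filled where the adjusted p was under 0.05), with TMM scaling. Medians are 0.44 for mitochondrial mRNAs and 0.45 for complex I, with complex II at -0.10. With spike-in scaling the medians of mitochondrial mRNAs and nuclear members turn negative (-0.33 and -0.38, against -0.74 for all tested genes). Without both BiTS(mut) libraries they are -0.07 and -0.16, against -0.49 for all tested genes.

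Among the mitochondrial genes, 12 of 13 mRNAs were higher in the second set, mt-Atp8 being the exception (0.18 ± 0.19). The complex I mRNAs ranged from 0.27 for mt-Nd4l to 0.58 for mt-Nd6, and mt-Nd5 was at 0.54 ± 0.06, mt-Nd1 at 0.53 ± 0.07, mt-Nd4 at 0.52 ± 0.07, mt-Nd2 at 0.48 ± 0.07 and mt-Nd3 at 0.44 ± 0.08. mt-Co1 was at 0.31 ± 0.06, mt-Co3 at 0.59 ± 0.09, mt-Co2 at 0.41 ± 0.11, mt-Cytb at 0.30 ± 0.07 and mt-Atp6 at 0.38 ± 0.15. Without either isotype library mt-Cytb was at 0.16 and still called, and mt-Atp6 was at 0.11 and no longer called, while without either BiTS library mt-Atp6 was at 0.59 to 0.60. The calls of mt-Atp6 (0.44) and mt-Co2 (0.36) were also lost without either BiTS(mut) library. mt-Nd4l had an adjusted p of 0.0498 (edgeR) and lost its call when any library was left out. mt-Rnr1 had the largest value of these rows, 0.94 ± 0.07, and mt-Rnr2 was at 0.50 ± 0.07. The ratio of mt-Rnr1 to mt-Rnr2 counts was 0.538, 0.476 and 0.441 in the second set (BiTS, BiTS(mut), isotype) and 0.339, 0.364 and 0.370 in the first (exact permutation p = 0.1). Both rRNAs are cut from the same precursor. Rows that carry nuclear rRNA-like sequence summed to 3227, 2873 and 5119 CPM in the second set (BiTS, BiTS(mut), isotype) and 2087, 1868 and 2474 CPM in the first, and all 5 tested rows were higher in the second. The part of rRNA removal in the mitochondrial rRNA values was not tested.

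Complex I held the largest share of calls among the nuclear complexes, with 30 of 36 subunits higher and 0 lower (median 0.45). Ndufb7, an accessory subunit, had 124, 129 and 126 CPM in the second set (BiTS, BiTS(mut), isotype) and 74.3, 65.0 and 72.0 CPM in the first, a log2 fold change of 0.85 ± 0.07. Ndufs7, a core subunit with the last iron-sulfur cluster before ubiquinone, had 113, 109 and 109 CPM in the second set and 64.8, 61.3 and 64.3 CPM in the first (0.80 ± 0.07). Within each of these genes the second-set libraries were all above the first-set libraries, in every group. Ndufa5 was at 1.05 ± 0.10, Ndufs6 at 0.68 ± 0.08 and Ndufa13 at 0.35 ± 0.07. The assembly factor Ndufaf8 had the largest difference among members with a mean CPM of at least 5, with 13.6, 15.2 and 14.7 CPM in the second set and 6.58, 6.29 and 6.71 CPM in the first (1.15 ± 0.15).

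In complex II, 1 of 4 subunits was higher and 1 lower (median -0.10). Sdha, its catalytic flavoprotein, was the single member called lower, with 177, 164 and 183 CPM in the second set (BiTS, BiTS(mut), isotype) and 212, 216 and 204 CPM in the first (-0.27 ± 0.07). It lost its call without either BiTS(mut) library (-0.21). Sdhb, the iron-sulfur subunit, was higher, with 126, 119 and 123 CPM in the second set and 88.0, 80.2 and 83.0 CPM in the first (0.55 ± 0.07). The membrane anchors Sdhc (-0.04 ± 0.08) and Sdhd (-0.16 ± 0.08) were not called. Sdhd was called without either isotype library (-0.30, adjusted p = 0.00179 and 0.00118 by edgeR), and was at -0.07 and not called without either BiTS library. The difference between complex II and the other complexes was not tested.

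In complex III, 6 of 9 subunits were higher and 0 lower (median 0.28). Uqcr11 had 62.8, 69.5 and 62.4 CPM in the second set (BiTS, BiTS(mut), isotype) and 28.5, 30.5 and 34.2 CPM in the first (1.07 ± 0.09), with no overlap. Uqcr10 was at 0.76 ± 0.08, Uqcrq at 0.66 ± 0.07 and Cyc1, the cytochrome c1, at 0.45 ± 0.07. In complex IV, 12 of 16 tested subunits were higher (median 0.27). Ndufa4, now counted as a subunit of complex IV, was at 0.79 ± 0.09, Cox6b2 at 0.59 ± 0.12, Cox6b1 at 0.46 ± 0.07, Cox7a2 at 0.29 ± 0.08, Cox8a at 0.26 ± 0.07, Cox4i1 at 0.25 ± 0.07 and Cox6a1 at 0.18 ± 0.07. The calls of Cox4i1, Cox7a2 and Cox8a were lost without either BiTS(mut) library, and that of Cox6a1 without any library. In complex V, 12 of 16 were higher (median 0.41), with Atp5d at 0.63 ± 0.07, Atp5e at 0.61 ± 0.07 and Atp5j at 0.58 ± 0.07. Atp5b, the highest of them, was not called (0.13 ± 0.07, adjusted p = 0.099 by edgeR). It was at 0.05 without either isotype library and at 0.20 to 0.21 without either BiTS library, not called in either case, and it was called with a filter of 5 CPM in 2 libraries (0.15).

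The nuclear members that moved most between the sets had short annotated transcripts. Length here is the median over annotated protein-coding transcripts, and which of them were expressed was not read. Ndufs1, for example, counts as short at 651 bases, while its row has 8086 bases of exon. Of 66 members whose median protein-coding transcript is under 1000 bases, 57 were higher in the second set (median 0.45), against 9 of the 24 longer ones (median 0.15). Over all tested genes with such a transcript the same split gave 38.2% of 2185 short genes and 23.0% of 9776 longer ones. Across genes the log2 fold change had a Spearman correlation of -0.37 with transcript length over the 90 members and -0.21 over 11961 genes. With GC content it was 0.32 over the members and 0.22 over all these genes. These points share the same 6 libraries, and genes are not independent replicates. Length and GC content moved with the set difference, and their part in it was not tested.

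**Figure D5:**
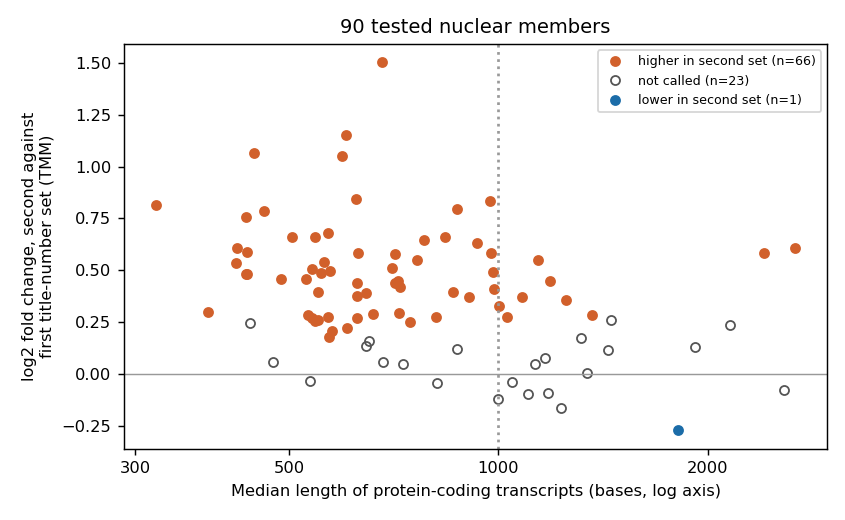
Log2 fold change in the second against the first title-number set with TMM scaling (y axis) by the median length of the protein-coding transcripts in bases (x axis, log scale) for the 90 tested nuclear members, filled where called. Below the dotted line at 1000 bases 57 of 66 members are higher, and above it 9 of 24, while with spike-in scaling of all 6 libraries 0 members are higher.

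Promoters were read for the nuclear members that differed most between the sets, because NRF1, GABPA and YY1 are the known regulators of this gene family. RefSeq promoter windows (GRCm38.p6, 250 bases before to 50 after the start) were matched for 76 of 94 nuclear members. On either strand, the palindromic core of the NRF1 motif was in 7 of the 76 windows (9.21%, against 1.07% of 27025 genes), CCGGAAG (GABPA, an ETS motif) in 18 (23.7% against 9.93%) and AAGATGGCG (YY1) in 8 (10.5% against 1.64%). At least 1 of the 3 was in 29 windows (38.2% against 12.1%), and 2 windows held both the NRF1 and the ETS motif. The 27025 genes are all those with a window, without a filter for expression or coding status, so they are not a matched background. The windows of Ndufaf8, Ndufb7 and Uqcr11 hold the ETS motif upstream of the start, from -8 to -2, from -20 to -14 and from -66 to -60. That of Ndufaf8 also holds the YY1 motif, from 10 to 18 after the start. The window of Sdhb holds the ETS motif from 6 to 12 after the start. That of Sdhd, which was not higher in the second set (-0.16), also holds the ETS motif, from -46 to -40. The window of Ndufs7 (0.80) holds only the YY1 motif, from 24 to 32 after the start. Those of Ndufa5 and Sdha hold none of the 3. Whether a motif goes with the set difference was not tested. A match of letters is a description and not a binding site. The 250 bases before the start are shown 5′ to 3′ on the gene's strand for Ndufaf8 (chr11:120098684-120098933, plus strand) and Uqcr11 (chr10:80406822-80407071, minus strand), both among the largest set differences, with the ETS motif in capitals.
Ndufaf8: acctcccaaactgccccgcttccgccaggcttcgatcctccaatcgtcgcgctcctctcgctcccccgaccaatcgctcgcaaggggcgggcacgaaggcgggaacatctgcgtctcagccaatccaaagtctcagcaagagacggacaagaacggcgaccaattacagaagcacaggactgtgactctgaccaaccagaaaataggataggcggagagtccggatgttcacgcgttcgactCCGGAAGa
Uqcr11: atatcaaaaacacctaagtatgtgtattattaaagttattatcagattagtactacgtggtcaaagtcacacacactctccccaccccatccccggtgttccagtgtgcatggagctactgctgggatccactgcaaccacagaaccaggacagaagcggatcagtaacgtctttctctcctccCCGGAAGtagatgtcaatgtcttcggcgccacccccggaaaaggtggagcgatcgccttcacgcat

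The genes that encode these factors did not move with their family. Of 11 tested regulators, 4 were higher and 4 lower in the second set. Ppargc1b (0.82 ± 0.17), Myc (0.36 ± 0.07), Esrra (0.20 ± 0.08) and Pprc1 (0.19 ± 0.07) were higher. Gabpa (-0.55 ± 0.08), Gabpb2 (-0.77 ± 0.07), Yy1 (-0.59 ± 0.07) and Sp1 (-0.48 ± 0.08) were lower, and Nrf1 was not called (0.07 ± 0.08). The other mitochondrial lists each had more genes higher than lower in the second set. Of 78 mitochondrial ribosomal proteins, 49 were higher and 0 lower (median 0.35), led by Mrpl12 (0.90 ± 0.07) and Mrps26 (0.93 ± 0.08). Mitochondrial DNA transcription and replication had 12 higher and 1 lower of 21, including Polrmt (0.42 ± 0.09), Twnk, the replicative helicase (0.48 ± 0.11), and Tfam (0.29 ± 0.09). Translation had 15 higher and 1 lower of 28, and assembly factors outside the rule 15 and 1 of 38, with Uqcc2 (0.72 ± 0.08) up and Coa5 (-0.72 ± 0.08) down. RNA processing had 11 higher and 3 lower of 23, with Tbrg4 at 0.62 ± 0.07 and Grsf1, which binds mitochondrial RNA granules, at -0.58 ± 0.08. Mobile carriers and ubiquinone synthesis had 6 higher and 1 lower of 14, with Cycs, cytochrome c, at 0.43 ± 0.07. Chaperones and proteases had 6 higher and 2 lower of 14, and the tricarboxylic acid cycle 5 higher and 1 lower of 16. All these counts stand against 25.9% higher and 26.9% lower of all tested genes. With 5 of 16 higher, the tricarboxylic acid cycle was near the share of all tested genes.

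Markers of other cells differed between the sets as well. Of 11 dendritic cell markers, 9 were lower and 1 higher in the second set (median -1.003), and their summed level was 605 to 762 CPM in the second set and 850 to 1193 CPM in the first. All 4 tested macrophage and monocyte markers were lower (15.3 to 17.6 CPM in the second set and 38.0 to 44.7 CPM in the first), with Adgre1 at 0.08 to 0.50 CPM over the 6 libraries. Of 10 T cell markers, 6 were higher and 0 lower (median 0.27). Of 2 tested B cell markers 1 was higher, and so was the 1 tested NK cell marker. The nuclear copies of mitochondrial genes had 5 of 7 tested rows higher and 0 lower (median 0.51). Whether the member differences come from the T cells or from the makeup of the cultures was not tested.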

How the data were processed

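The authors deposited 1 table of raw counts per gene for each of 6 libraries, with exon intervals and gene lengths. Per the submitters' processing notes the build is mm10 and DESeq2 was a tool. Aligner, counter, annotation release and strandedness: not given in the sources used here. The members and lists were chosen with earlier results of these data known. Symbols came from GENCODE M21, which held 49412 of 49671 identifiers.

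Counts were filtered with filterByExpr, scaled by TMM and tested with edgeR 4.0.16 (quasi-likelihood, limma 3.58.1, R 4.3.3), two-sided, over all 6 libraries, with Benjamini-Hochberg adjustment over the 13996 genes tested, called under 0.05. The main treatment fits had no block, and the set comparison had treatment as a term. The pairing comes from title numbers and from the 3 correlations given in the report. The 92 spike-in rows stayed out of library sizes and shares. Shares and ratios were tested by exact permutation (scipy 1.17.1). Alternatives were DESeq2 1.42.0, limma-voom, other scalings and filters, and leaving out each library. The edgeR steps were also run on simulated counts. These held no difference between the sets, so that run cannot show how the fits handle one.

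Named genes were the mitochondrial mRNAs and rRNAs and, of the nuclear members, per comparison with and without the block, up to 10 called members with the smallest p, the 3 largest increases and decreases (higher group averaging 5 CPM or more), the highest member per kilobase in each complex, tissue-restricted isoforms with their partners, the Sdh genes, Cyc1 and up to 3 called genes per list. Some of them are left out of the text. Gene lengths are the deposited exon lengths. Wilson intervals of shares and the upper limits for rows without counts cover counting error only. Intervals of fold changes come from the edgeR standard errors, which include the spread between libraries.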

Additional observations from a re-analysis of the deposited data

Results flagged for a closer look

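Several BiTS and BiTS(mut) differences had opposite signs in the sets, and whether the sets differ was not tested. With 1 library per group and set, each value is a difference between 2 libraries. BiTS(mut) minus isotype was 0.811 percentage points of gene counts in the first set and -0.12 in the second for mitochondrial mRNA, and 0.176 and -0.0191 for the log2 ratio of mitochondrial mRNA to nuclear counts. For the nuclear share it was -0.00902 and 0.000277 percentage points, and BiTS minus BiTS(mut) was 0.00848 and -0.0396. The ratio of mt-Rnr1 to mt-Rnr2 counts differed by -0.0311 in the first set and 0.0964 in the second for BiTS minus isotype, by -0.0255 and 0.0621 for BiTS minus BiTS(mut), and by -0.00558 and 0.0343 for BiTS(mut) minus isotype. In BiTS against isotype the log2 differences were 0.34 in the first set and -0.20 in the second for mt-Rnr2, 0.24 and -0.25 for mt-Cytb, and 0.22 and -0.32 for mt-Nd1.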

How the results depend on the processing

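In the treatment comparisons 0 members were called with and 0 without the replicate block by edgeR. In BiTS against isotype with the block, limma-voom, no filter on low counts and a filter of 5 CPM in 2 libraries each called 1 member, mt-Co1, against 3.84%, 1.59% and 3.89% of all tested genes. Leaving out 1 library gave 0 to 6 called members in BiTS against isotype and 0 to 4 in BiTS(mut) against isotype. With the block, 6 of 120 were called without isotype replicate 1, against 6.38% of all tested genes (mt-Rnr2, mt-Nd1, mt-Nd4, mt-Cytb and Atp5g3 lower, Ndufv3 higher) and 5 without isotype replicate 4, against 3.95% (mt-Rnr1, mt-Rnr2, mt-Co1, mt-Cytb and Ndufa9 higher), and in BiTS(mut) against isotype 4 and 2, against 0.899% and 0.102%, so that mt-Rnr2 and mt-Cytb took the sign of the isotype library kept. A lone library was assumed to vary like the others.

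Without mt-Co1, a choice made after seeing the data, the mitochondrial mRNA share differed by -0.126 percentage points in BiTS against isotype, -0.0165 in BiTS against BiTS(mut) and -0.109 in BiTS(mut) against isotype. Leaving out 1 library gave -0.573 to 1.85, -0.459 to 1.04 and -0.864 to 1.56, from unpaired means that do not account for the sets. The log2 ratio to nuclear counts was -0.0206 in BiTS against isotype and -0.0471 in BiTS(mut) against isotype without mt-Co1, -0.0654 in BiTS(mut) against isotype without overlapping mitochondrial genes, and -0.0131 to 0.170 there when 1 library was left out, again unpaired. Between the sets, the mitochondrial mRNA count divided by the spike-in count averaged 1.52 in the second and 1.99 in the first, a difference of -0.468, and of -0.152 without both BiTS(mut) libraries.

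Leaving out 1 library without the block gave log2 ranges in BiTS against isotype of -0.0021 to 0.44 for mt-Co1, -0.42 to 0.76 for mt-Rnr1, -0.33 to 0.48 for mt-Rnr2, -0.28 to 0.28 for mt-Cytb, -0.44 to 0.35 for mt-Nd1, -0.70 to 0.074 for Ndufc1, -0.018 to 0.46 for Atp5s, -0.46 to 0.048 for Ndufs5 and -0.49 to 0.21 for Ndufa12. In BiTS against BiTS(mut) they were -0.059 to 0.22 for mt-Co1, -0.11 to 0.44 for Ndufaf6, -0.040 to 0.33 for Ndufa8, -0.52 to 0.041 for Ndufaf3 and -0.36 to 0.068 for Cox7b. In BiTS(mut) against isotype mt-Co1 ran from -0.090 to 0.36, and between the sets Sdhc ran from -0.14 to 0.031. With the block, mt-Rnr2 in BiTS against isotype was at -0.10 without BiTS replicate 1 and -0.17 without isotype replicate 1, mt-Cytb at 0.16 without BiTS replicate 2 and 0.20 without isotype replicate 4, and mt-Nd1 at 0.15 without either BiTS replicate 2 or isotype replicate 4. Ndufa8 in BiTS against BiTS(mut) was at -0.024 without BiTS replicate 1. Spike-in scaling gave mt-Cytb 0.068, and 0.030 with the block, and mt-Nd1 0.0063 in BiTS against isotype, and Cox7b 0.027 with the block in BiTS against BiTS(mut).

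Between the sets, spike-in scaling left 9 called members, all lower, against 43.7% of all tested genes, whose median was -0.74. After seeing the data, it was repeated with each group left out. Without BiTS(mut) 36 members were called (7 higher and 29 lower), against 60.7% of all tested genes either way and 58.9% lower. It called 0 without BiTS and 0 without isotype, against 8.86% and 3.39% of all tested genes. With all libraries it gave -0.45 for mt-Co1, -0.36 for mt-Co2, -0.18 for mt-Co3, -0.46 for mt-Cytb, -0.23 for mt-Nd1, -0.28 for mt-Nd2, -0.33 for mt-Nd3, -0.24 for mt-Nd4, -0.49 for mt-Nd4l, -0.22 for mt-Nd5, -0.18 for mt-Nd6, -0.38 for mt-Atp6, -0.58 for mt-Atp8 and -0.26 for mt-Rnr2. It gave -0.10 for Uqcrq, -0.0070 for Uqcr10, -0.31 for Cyc1, -0.21 for Sdhb, -0.080 for Ndufs6, -0.41 for Ndufa13, -0.13 for Atp5d, -0.15 for Atp5e, -0.18 for Atp5j, -0.63 for Atp5b, -0.18 for Cox6b2, -0.30 for Cox6b1, -0.51 for Cox4i1, -0.32 for Cox5b, -0.58 for Cox6a1, -0.47 for Cox7a2 and -0.50 for Cox8a. Under the other alternatives 73 to 90 members were called between the sets, against 24.1% to 61.9% of all tested genes. With 1 library left out 68 to 85 were called, against 34.2% to 49.4% of all tested genes. The causes of these changes were not tested. Depth limits the tRNA rows and the low isoforms most.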
